A study of Mus musculus with 6 samples.

Results

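The fibroblast growth factor (FGF) system of NIH/3T3 cells is described here by 10 genes, of which 7 encode ligands (Fgf1, Fgf2, Fgf5, Fgf7, Fgf10, Fgf18 and Fgf21) and 3 encode receptors (Fgfr1, Fgfr2 and Fgfrl1). They were taken from a list of names and matched to probe sets that carry a single gene symbol. Each of the 10 had 1 such probe set, and all 10 were among the 17145 genes tested. NIH/3T3 is an immortalized line of mouse fibroblasts. All cells were stably transfected with HA-tagged mouse RPB1, which is the catalytic large subunit of the polymerase that transcribes protein-coding genes, and were grown with 10% bovine calf serum and 2 µg/ml α-amanitin, which inhibits RNA polymerase II. In the 3 wild type samples the tagged RPB1 had its normal C-terminal domain, and in the 3 8KR samples every lysine at position 7 of a heptad repeat was replaced by arginine, which keeps the charge and prevents acetylation. RNA of each sample was read on 1 Affymetrix Mouse Gene 1.0 ST array, and the values are normalized log2 intensities. The paper calls the samples of a group biological replicates. Whether they stem from 1 stably transfected population or from several is not stated, so the p-values measure the spread between these arrays only.

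FGF ligands are secreted proteins that bind receptor tyrosine kinases at the cell surface together with heparan sulfate, and the receptors signal through adaptor proteins to the Ras and ERK pathway. Fgf7 and Fgf10 belong to 1 subfamily of ligands, which mesenchymal cells secrete and which act mainly on the epithelial splice form of Fgfr2. Fgf21 acts as a hormone and needs the coreceptor β-Klotho, encoded by Klb. Fgfrl1 binds ligands but lacks the kinase domain of the other receptors.

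The arrays were alike in their overall level, with median log2 intensities from 4.49 to 4.54, and arrays of the same group correlated at 0.982 to 0.984, compared with 0.975 to 0.978 for arrays of different groups. Polr2a, which encodes RPB1, had a log2 intensity of 12.10 ± 0.01 in wild type and 12.13 ± 0.01 in 8KR cells (SD, n = 3 each). Its probe set does not separate the transgene from the gene of the cell, so it does not check the labels. All 10 fibroblast markers were detected above the filter, and their mean log2 intensity per array lay between 9.73 and 9.81 in wild type and between 9.51 and 9.52 in 8KR cells. Of them, 2 fell in 8KR cells, Col3a1 and Pdgfra, where 3.06% of all tested genes fell. Of 30 markers of epithelial, endothelial, blood, muscle and fat cells, 23 were tested and 0 passed with limma. Among those 23, 5 had an unadjusted p under 0.05 from limma, where 21.8% of all tested genes did. The other 7, among them Ptprc, Kdr and Adipoq, were not tested, either because they lay below the filter or because they had no single-symbol probe set. The mean log2 intensity of these marker lists was at most 4.62 on any array, and it separated the groups for the 5 muscle markers only, with 4.59 to 4.61 in wild type and 4.36 to 4.43 in 8KR cells.

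Fgf10 fell in 8KR cells, and the other 9 genes did not pass the test. Its log2 intensity was 6.85, 6.62 and 6.62 in wild type replicates 1 to 3 and 5.45, 5.44 and 5.32 in 8KR replicates 1 to 3. All 3 8KR arrays thus lay more than 1 log2 unit below the lowest wild type array. The means were 6.70 ± 0.13 and 5.41 ± 0.07 (SD, n = 3 each), a log2 difference of -1.29 (standard error 0.10, 95% interval -1.53 to -1.06, adjusted p = 0.00337 from limma). This corresponds to a 2.45-fold lower intensity (interval 2.08 to 2.88), or 59.1% less. Fgf10 is a mesenchymal ligand known for its part in the branching of the lung and the outgrowth of the limb. Of 525 genes that fell among all those tested, 68 had a larger fall, and the median log2 difference of the 525 was -0.69. Calls among all tested genes came to 5.39% in either direction, 2.33% higher and 3.06% lower in 8KR cells, so 1 call among 10 genes does not set the FGF genes apart as a group. The mean levels of the fibroblast and muscle markers were lower on all 3 8KR arrays as well. Of the 5 muscle markers, Des (log2 difference -0.74) and Tnnt2 (-0.41) carried this without passing, while Myh3 (0.03), Myod1 (0.01) and Myog (0.02) were near 0. Among the fibroblast markers, Fn1 (log2 difference 0.09) and Vim (0.03) were measured higher and Thy1 (-0.02) was near 0, while the rest were lower. The part of these markers in the fall of Fgf10 was not tested. In whole cultures, fewer cells with a transcript and less transcript per cell cannot be told apart.

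**Figure D1:**
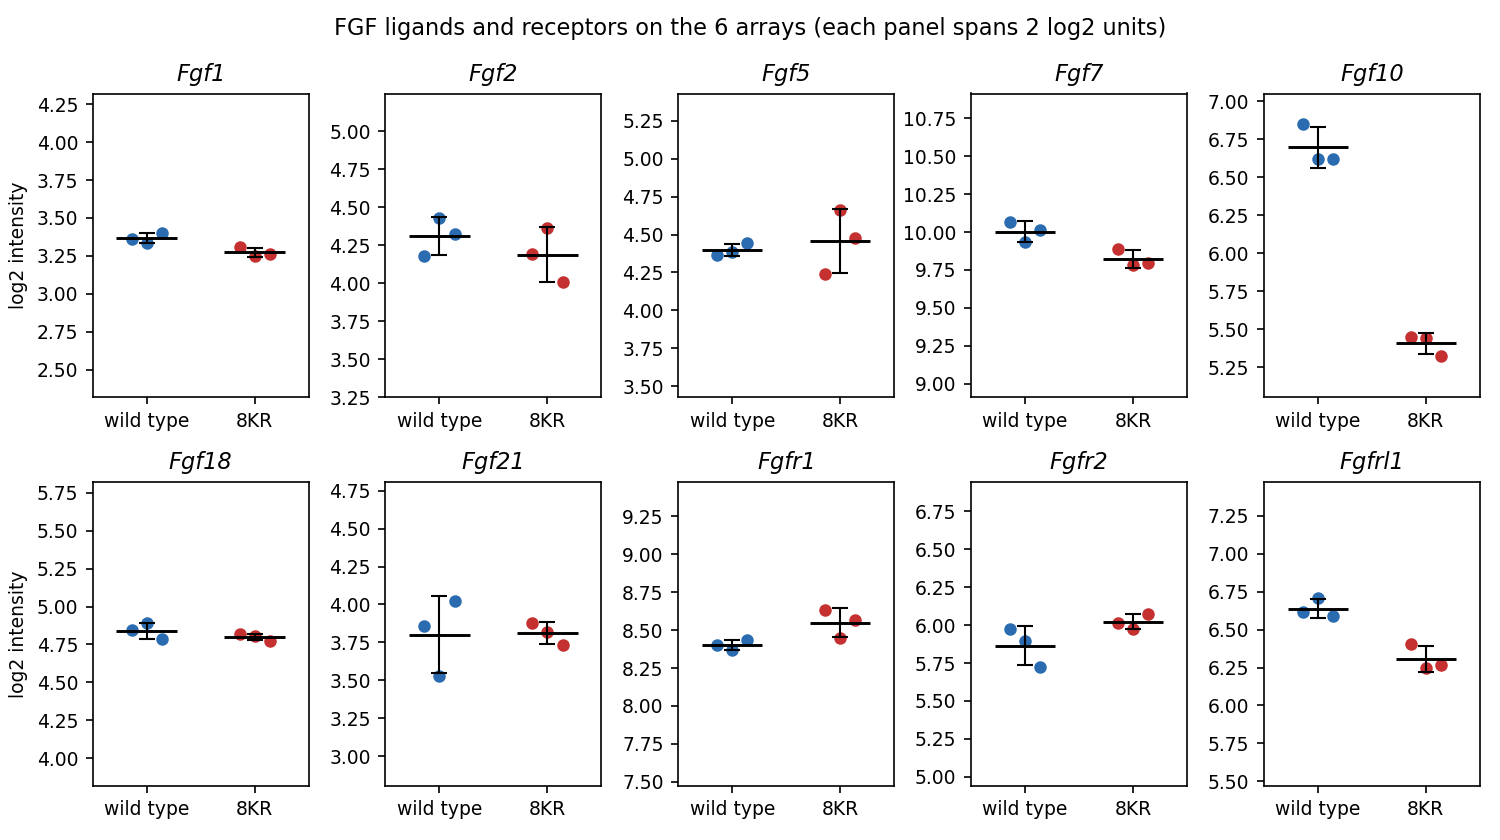
Log2 intensity (vertical axis, each panel spanning 2 log2 units) of the 10 FGF genes on the 3 wild type (blue) and 3 8KR (red) arrays, where each dot is an array, black lines give group means and whiskers their SD. Fgf10 drops from a mean of 6.70 to 5.41, while the next largest difference of means, for Fgfrl1, is -0.33.

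Bases just upstream of the annotated start are shown for Fgf10, which fell, for Fgf7, its close relative that did not pass, and for Fgfrl1, which had the next smallest p. The sequences are the 250 bases before the start in RefSeq, build GRCm38.p6, printed 5′ to 3′ on the strand of the gene, and 8 of the 10 genes have an entry in that table. Capitals mark matches on either strand to 5 motifs. These are the TATA box, searched as TATAAA, the CCAAT box, searched by the letters of its name, the GC box, searched as GGGCGG, the E-box, searched as CACGTG, and the AP-1 site, searched as TGACTCA.
Fgf10, chr13:118714449-118714698, plus strand: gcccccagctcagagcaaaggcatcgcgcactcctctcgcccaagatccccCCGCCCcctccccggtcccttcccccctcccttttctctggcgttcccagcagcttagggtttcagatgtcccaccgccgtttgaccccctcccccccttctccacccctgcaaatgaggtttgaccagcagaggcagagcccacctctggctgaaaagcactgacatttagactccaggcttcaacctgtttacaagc
Fgf7, chr2:126034408-126034657, plus strand: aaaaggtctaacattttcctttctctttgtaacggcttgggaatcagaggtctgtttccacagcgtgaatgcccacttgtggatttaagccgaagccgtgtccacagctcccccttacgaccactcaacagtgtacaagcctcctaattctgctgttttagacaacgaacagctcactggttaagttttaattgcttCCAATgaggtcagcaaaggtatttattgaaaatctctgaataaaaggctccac
Fgfrl1, chr5:108693979-108694228, plus strand: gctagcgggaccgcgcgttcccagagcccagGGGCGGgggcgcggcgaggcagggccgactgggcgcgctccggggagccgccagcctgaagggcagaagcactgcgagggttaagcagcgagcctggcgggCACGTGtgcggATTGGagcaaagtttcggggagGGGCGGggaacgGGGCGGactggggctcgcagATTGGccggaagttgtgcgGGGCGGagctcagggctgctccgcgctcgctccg

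The Fgf10 stretch held 1 GC box, 199 to 194 bases before the start, and none of the other motifs. A GC box was found in 6 of the 8 FGF genes with an entry and in 32.7% of all 32841 promoters of the same length. These promoters were not limited to those of tested genes. Fgf7 held 1 CCAAT box, 53 to 49 bases before the start, and no GC box, and CCAAT occurred in 33.9% of all promoters. Fgfrl1 held 4 GC boxes, 2 CCAAT boxes and 1 E-box, and an E-box occurred in 6.02% of all promoters. Fgf21 was the only 1 of the 8 with a TATA box, which 12.4% of all promoters held, and no FGF gene had the AP-1 letters, which 4.46% held. Bases G and C made up 61.2% of the Fgf10 stretch, 43.6% of that of Fgf7 and 73.6% of that of Fgfrl1, against a median of 52.4% over all promoters. These matches describe the letters in the window and do not show that a factor binds there.

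Fgf7, also called keratinocyte growth factor, was measured at a log2 intensity of 10.06, 9.93 and 10.01 in wild type and 9.89, 9.78 and 9.80 in 8KR cells. The 2 groups did not overlap, but the gap between them was small. Its log2 difference was -0.18 (standard error 0.08, 95% interval -0.37 to 0.01), and it did not pass (adjusted p = 0.268 from limma). The interval leaves room for a fall of up to 1.29-fold, which is smaller than the lower bound of 2.08-fold for Fgf10. The log2 differences of Fgf10 and Fgf7 were compared through the value of Fgf10 minus that of Fgf7 on the same array. Between the groups this quantity differed by -1.11, with an SD of 0.09 over the wild type arrays and 0.07 over the 8KR arrays. The same quantity against each of the other 9 FGF genes differed by -1.45 for Fgfr2 to -0.96 for Fgfrl1. Fgf10 was singled out for its fall and all 9 values contain that fall, so they are a description and support no call.

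The other 5 ligands had low intensities and small differences. Fgf1, Fgf2 and Fgf21 lay below the median of the array on all 6, Fgf5 on 5 and Fgf18 on 0. Fgf1 and Fgf2, which lack a classical signal peptide, had log2 differences of -0.09 (95% interval -0.26 to 0.07) and -0.12 (-0.42 to 0.17). Fgf1 lay between 3.25 and 3.40 on all 6 arrays, near the intensity of 3.0 below which values were removed as background. Fgf1 was nonetheless slightly lower on every 8KR array than on any wild type array, by amounts too small to pass (adjusted p = 0.525 from limma). Fgf2 had means of 4.31 and 4.19, and the groups overlapped. Its difference rested on single arrays, at -0.21 without 8KR replicate 2, -0.19 without wild type replicate 1, -0.06 without wild type replicate 2 and -0.03 when 8KR replicate 3 was left out. Fgf2 shares its locus with the antisense genes Fgf2os and Nudt6. Fgf5, a ligand known from the hair cycle, had a difference of 0.06 (-0.23 to 0.35), with 8KR arrays at 4.24, 4.66 and 4.47 on both sides of the wild type arrays at 4.37, 4.39 and 4.44. Fgf18, a ligand of skeletal development, ranged from 4.77 to 4.89 over the 6 arrays and had a difference of -0.04 (-0.21 to 0.13), which was -0.02 without wild type replicate 2 and -0.07 without wild type replicate 3. Fgf21 had a difference of 0.01 (-0.33 to 0.35), and its wild type arrays ranged from 3.53 to 4.02. These intervals bound the change in measured intensity, which near background understates a change in transcript level.

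The receptors changed less than Fgf10, and none passed, while 1 of the 3 had an unadjusted p under 0.05 from limma. Fgfrl1 had log2 intensities of 6.61, 6.71 and 6.59 in wild type and 6.40, 6.25 and 6.27 in 8KR cells. The groups did not overlap, and the difference was -0.33 (standard error 0.08, 95% interval -0.53 to -0.13, unadjusted p = 0.00654 and adjusted p = 0.0871 from limma). It passed when only probe sets with a group mean above 5.0 were tested (adjusted p = 0.0345 from limma), a setting in which 17.6% of genes were called. Fgfr1, the receptor typical of fibroblasts, was measured at 8.40, 8.37 and 8.43 in wild type and 8.63, 8.45 and 8.56 in 8KR cells. All 8KR values of Fgfr1 were above the wild type values, by 0.15 on average (standard error 0.08, 95% interval -0.05 to 0.34, adjusted p = 0.384 from limma). Fgfr2 had log2 intensities of 5.97, 5.89 and 5.72 in wild type and 6.02, 5.97 and 6.07 in 8KR cells, a difference of 0.16 (-0.07 to 0.38), and the groups overlapped. Without wild type replicate 3 the difference was 0.09. The probe set of Fgfr2 gives 1 value for the gene and does not tell its splice forms apart here.

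**Figure D2:**
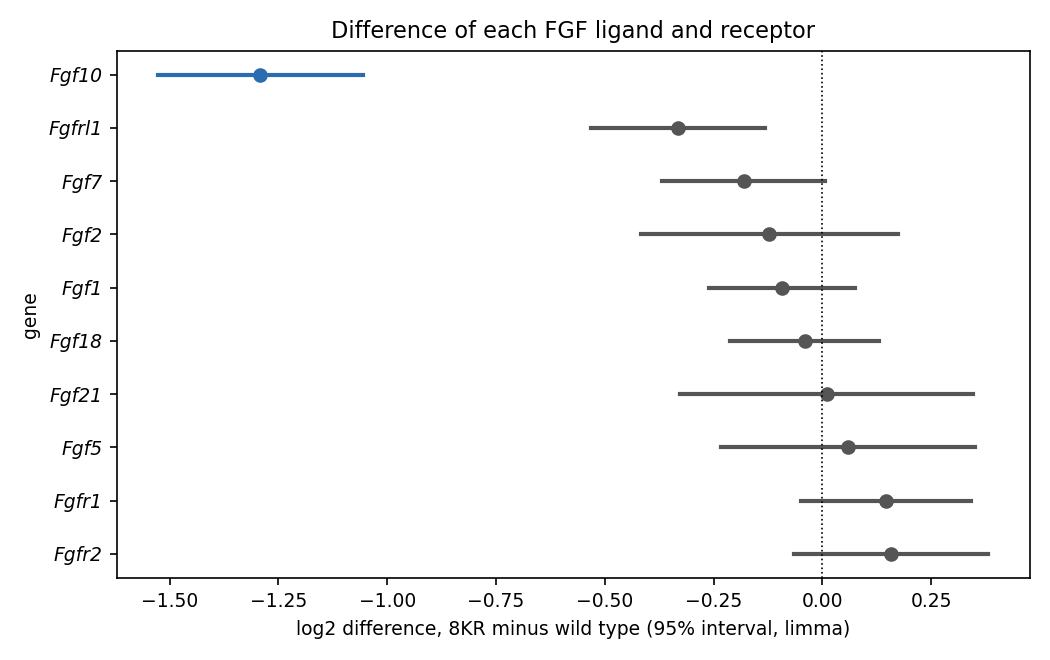
Log2 difference, 8KR minus wild type (horizontal axis), of each FGF gene (vertical axis), with the limma estimate as a point and its 95% interval as a line. Only Fgf10 (blue) passed at an adjusted p under 0.05, and the interval of Fgfrl1, from -0.53 to -0.13, is the other one that does not reach 0.

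Over the 10 genes the median log2 difference was -0.07, compared with 0.01 over all tested genes, with 4 genes higher and 6 lower in 8KR cells. In size, the median difference was 0.13 for the FGF genes and 0.14 for all tested genes. The groups of arrays did not overlap for 5 of the 10, namely Fgf1, Fgf7, Fgf10, Fgfr1 and Fgfrl1, as for 29.7% of all tested genes. An unadjusted p under 0.05 was reached by 2 of the 10, Fgf10 and Fgfrl1, as by 21.8% of all tested genes. The FGF genes also varied little between replicates, with a median SD within a group of 0.09, against 0.14 for all tested genes.

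The remaining genes of FGF signaling were read from 4 lists by role. Of 48 genes listed, 46 were tested, 1 rose, none fell and 45 did not pass, and 8 had an unadjusted p under 0.05 from limma. The share that passed, 2.17%, was below the 5.39% of all tested genes, and 8 of 46 is also a smaller share than the 21.8% of all tested genes with an unadjusted p under 0.05. Of the 15 other numbered Fgf genes, 14 were tested and none passed. An unadjusted p under 0.05 was reached by 1, the phosphate-regulating hormone gene Fgf23 (log2 difference 0.28, adjusted p = 0.194 from limma). Fgf17 (0.30) and Fgf12 (-0.18) followed it in p. The differences of these genes ranged from -0.18 to 0.30, none as large as the fall of Fgf10. Their wild type means ran from 3.31 for Fgf14 to 5.70 for Fgf8. Near background, as for Fgf12 at 3.60, a fall like that of Fgf10 could hardly have been seen. Among 9 other receptors, coreceptors and binding proteins none passed, with 1 at an unadjusted p under 0.05. It was Flrt2, a membrane protein that can bind FGF receptors, which had a difference of -0.50 (standard error 0.17, adjusted p = 0.176 from limma). Flrt3 (-0.14) and Flrt1 (0.11) came next, at -0.06 and 0.02 without wild type replicate 3, and Flrt1 at 0.19 without wild type replicate 2. Klb, the coreceptor for Fgf21, had a difference of 0.11 (95% interval -0.24 to 0.45) and means of 3.46 and 3.57, close to background.

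Sos1 rose among the adaptors that carry the signal from the receptor to Ras. It encodes the exchange factor that loads Ras with GTP. Its log2 intensity was 6.14, 5.88 and 5.88 in wild type and 6.62, 6.63 and 6.76 in 8KR cells, so all 8KR values were higher. The log2 difference was 0.70 (standard error 0.10, 95% interval 0.46 to 0.95, adjusted p = 0.0216 from limma). The call did not survive leaving out wild type replicate 2 or 3 or 8KR replicate 1, 2 or 3 (adjusted p = 0.0790, 0.0797, 0.0743, 0.0747 and 0.0784 from limma), although the difference stayed between 0.66 and 0.73. In fits without 1 array, 1.6% to 1.71% of all genes passed, against 5.39% with every array. The Sos1 call was also lost with the replicate number as a block (adjusted p = 0.105 from limma), where 0.367% of all genes passed. Sos2, its paralog, had a difference of -0.03, and the other 11 adaptors tested did not pass either. Plcg1, a phospholipase recruited by the receptors, had a difference of 0.33 (adjusted p = 0.0794 from limma), and Ptpn11, a phosphatase of the adaptor complex, -0.18. Frs2, the main docking protein of FGF receptors, was not analysed here because no probe set carried its symbol alone.

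Transcription factors and inhibitors that FGF signaling induces did not pass in either direction. An unadjusted p under 0.05 from limma was reached by 4 of the 10, where 21.8% of all tested genes reached it. Dusp6, an ERK phosphatase, had log2 intensities of 7.46, 7.14 and 7.40 in wild type and 7.95, 7.80 and 7.75 in 8KR cells. Its difference of 0.50 (standard error 0.11) had an adjusted p of 0.0685 from limma. Spry2, an inhibitor of receptor signaling, had a difference of 0.26, and Etv4, an ETS transcription factor, 0.46, with adjusted p = 0.134 for both from limma. Spred1, another inhibitor, was lower in 8KR cells by a difference of -0.27 (adjusted p = 0.149 from limma). The list was split evenly, with 5 genes higher and 5 lower, and its median difference was 0.09. Dusp6 and Plcg1 passed when limma's variance followed the intensity (adjusted p = 0.0349 and 0.0491 from limma), where 8.91% of genes were called.

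**Figure D3:**
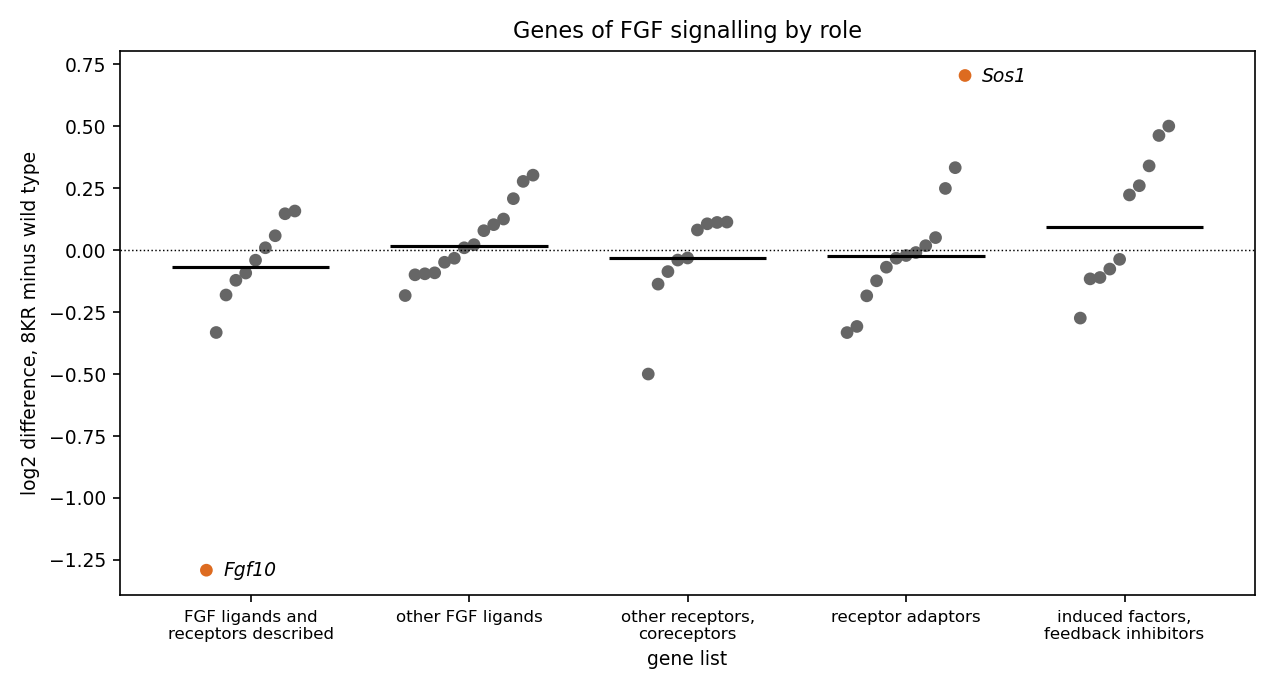
Log2 difference, 8KR minus wild type (vertical axis), of each tested gene of the FGF system, grouped by role (horizontal axis), with 1 point per gene, orange for an adjusted p under 0.05 and a horizontal line at the median of each list. Fgf10 at -1.29 and Sos1 at 0.70 stand outside the range of the other genes, which runs from -0.50 to 0.50. The list labelled other FGF ligands holds the other numbered Fgf genes.

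Fgf10 fell in a neighborhood where most genes were measured higher in 8KR cells. Of the 5 nearest tested genes on either side of it on chromosome 13, in the gene order of RefSeq (GRCm38.p6), 8 of 10 had a positive difference, with a median of 0.35, compared with 8876 of all 17145 tested genes. Of these 10 neighbors 3 passed, where 5.39% of all tested genes did, and neighbors are not independent of each other. Nnt, a mitochondrial transhydrogenase and the nearest tested gene after Fgf10, rose by 0.63 on the log2 scale (adjusted p = 0.0176 from limma), and Paip1, which binds the poly(A)-binding protein, rose by 0.58 (adjusted p = 0.0270 from limma). Emb, which encodes the membrane glycoprotein embigin and lies on the other side, fell by 0.95 (adjusted p = 0.00387 from limma). Gm10732, the nearest tested gene before Fgf10, had a difference of 0.14 and means of 3.16 and 3.30. Those lie near the filter of 3.0, so Gm10732 could hardly show a fall. Around the other 9 FGF genes, 2 of 90 neighbors passed, a share below that of all tested genes. They were Tacc1 near Fgfr1 (log2 difference -0.56) and Plekha1 near Fgfr2 (0.60). A positive difference was measured for 52 of the 90, and around Fgf5 for 8 of 10, the same count as around Fgf10. The medians of these 9 neighborhoods lay between -0.15 and 0.12.

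**Figure D4:**
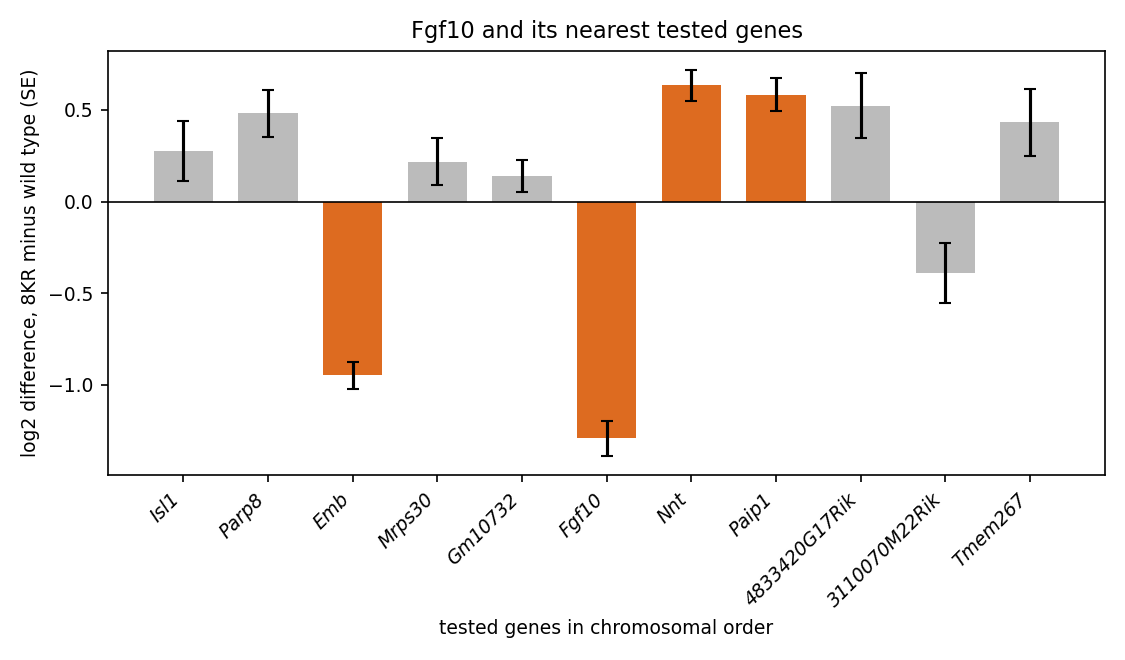
Log2 difference, 8KR minus wild type (vertical axis, bars with standard errors from limma), of Fgf10 and the 5 nearest tested genes on either side in chromosomal order (horizontal axis), with orange bars at an adjusted p under 0.05. Fgf10 at -1.29 lies between Gm10732 at 0.14, a gene measured near background, and Nnt at 0.63.

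Layn, Aldh1a1 and Cacna2d1 had array profiles most like that of Fgf10. Likeness was measured as the root mean square difference, over the 6 arrays, between log2 values taken relative to each gene's own mean. It was 0.08 for Layn, a membrane receptor for hyaluronan, 0.08 for Aldh1a1, a retinaldehyde dehydrogenase, and 0.10 for Cacna2d1, a calcium channel subunit. Their log2 differences were -1.37, -1.29 and -1.27, and with 2 groups of 3 arrays this likeness mostly reflects a fall of similar size.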

How the data were processed

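Gene expression was measured on Affymetrix Mouse Gene 1.0 ST arrays in 3 wild type and 3 8KR samples, grouped by genotype and replicate as the labels give them. The authors normalized the arrays and deposited log2 intensities, with 1 value per probe set and array. Affymetrix Power Tools 1.12.0 appears in the submitters' processing notes. How the arrays were normalized, and to which build the probes refer, is not given in the sources that were used.

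Starting from these log2 values, probe sets were kept where the mean of either group exceeded 3.0, the study's own threshold, which left 28543 of 35557. Group differences came from limma (version 3.58.1, R 4.3.3) with lmFit and eBayes and no covariates. Benjamini-Hochberg adjustment ran over all 28543 probe sets. A gene passed at an adjusted p under 0.05. The words rose and fell are used of genes that passed. Symbols came from the platform annotation and were updated by Entrez identifier with RefSeq (GRCm38.p6), and a gene was represented by its single-symbol probe set with the highest mean. The fit was tested on simulated data. Figures were drawn with matplotlib 3.10.9.

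The FGF genes and the lists were chosen with earlier results of these data known. Named were all 10 FGF genes, the genes of each list that passed or had the 3 smallest p-values, neighbors that passed and the 3 genes most like Fgf10. A few further genes (Klb, Sos2, Spred1, Frs2 and Gm10732, and the muscle and fibroblast markers) were added after their values were seen, for their role or place. Alternatives covered the filter, normalization, variance model, array weights, replicate block, symbols, thresholds and each array left out. The arrays give no counts, and their number limits the precision.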

Additional observations from a re-analysis of the deposited data

How the results depend on the processing

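The fall of Fgf10 passed at an adjusted p under 0.05 in all 14 alternative fits, with a log2 difference from -1.33 to -1.21 and an adjusted p from 2.50e-04 to 0.0477 by limma. The number of FGF genes that passed was 1 in each, except that Fgfrl1 also passed, for a count of 2, when a group mean above 5.0 was required (only 5 of the 10 genes were then tested) and at an adjusted p under 0.10. It was 1 without any single array. Among the other genes of FGF signaling, 3 passed (Dusp6, Plcg1 and Sos1) when a group mean above 5.0 was required, with an intensity trend, over single-symbol probe sets and at an adjusted p under 0.10, where 17.6%, 8.91%, 9.55% and 9.92% of all genes passed. At an adjusted p under 0.01 (1.22% of all genes passed) and with the replicate block 0 passed by limma. Leaving out 1 array gave 0 to 1, where 1.6% to 1.71% of all genes passed. With the replicate number as a block, Fgf10 had an adjusted p of 0.0477 and Sos1 of 0.105 by limma, and 0.367% of all genes passed, against 5.39% without it. Replicate numbers gave no sign of pairing, with correlations of -0.0113, 0.00858 and -4.84e-04 between the deviations of same-numbered arrays. The differences of 2 genes near 0 changed sign. That of Fgf21 was -0.015 with quantile normalization, -0.018 with arrays centered on their medians, and -0.13 to 0.12 when 1 array was left out, and that of Fgf5 was -0.043 (without 8KR replicate 2) to 0.17 when 1 array was left out. The uncalled differences of Fgf2, Fgf18 and Fgfr2 also depended on single arrays, without a change of sign. Of 135 values of the FGF genes under alternatives, 129 kept direction and call. A mean over several probe sets of a gene gave no further value, because each FGF gene had 1.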
